A study of Mus musculus with 4 samples.

Results

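The genes described here are 46 mouse genes of mitosis: those for entry into mitosis, the kinetochore, the spindle and cytokinesis. They were picked by symbol from a fixed list, and all 46 were found among the 33641 gene symbols with a value in each library. The list was chosen with earlier results of these data known, so its counts beside those of all tested genes are descriptions. The libraries came from primary cardiac fibroblasts of wild-type C57BL/6J mice aged 12 weeks, grown to 80% confluency. The comparison was between 2 libraries of cells given 10 ng/ml TGFbeta and 2 libraries of cells given vehicle, and the length of the TGFbeta treatment is not given in the sources used here. Cells of both groups also took up 4-thiouridine, at 20 and 4 h before crosslinking with 368 nm light. By the series' design text the sequenced RNA was recovered with HuR, a protein that binds RNA, after crosslinking, while by the sample labels it was total RNA of the cells, and the sources used here do not settle which the libraries hold. Levels of mitotic transcripts are therefore given as levels in the libraries, without a statement on HuR binding. Whether the 2 libraries of a group came from separate cultures or animals is not stated, so p-values measure the spread between these samples, which may be technical.

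Dividing cells make most of these transcripts in late S phase, G2 and mitosis, and some of their proteins are broken down during mitosis or as it ends. Cdk1 bound to A-type and B-type cyclins starts mitosis, kinetochores built on centromeres tie chromosomes to spindle microtubules, and a checkpoint holds back the anaphase-promoting complex until all chromosomes are attached. Securin is then destroyed, separase frees the sister chromatids, and the spindle midzone directs the cleavage furrow. Because quiescent cells keep little of this RNA, the set is widely read as a measure of proliferation, and fibroblasts of the adult heart are known as mostly quiescent cells that divide in culture or after injury.

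With TGFbeta, mitotic transcripts lay lower across nearly the whole set. Summed over the 46 genes, the level was 408.0 and 407.2 TPM (a level per transcript length, scaled to the same total in every library) in the TGFbeta libraries, against 679.8 and 620.1 TPM in the vehicle libraries. The sums averaged 407.6 ± 0.576 TPM with TGFbeta and 650.0 ± 42.3 TPM with vehicle (SD, n = 2 each), a ratio of 0.627. Both TGFbeta libraries lay below both vehicle libraries for 39 of the 46 genes, and 0 genes lay above. Among all 15815 tested genes, those with a mean of at least 1 TPM, 39.8% were separated in the lower direction and 15.5% in the higher direction. The median log2 change of the 46 genes, the difference of group means of log2(TPM + 1), TGFbeta minus vehicle, was -0.67, beside -0.13 for all tested genes. Single genes ran from -1.27 for Cdc25b to -0.03 for Smc4. All 46 had a negative change, beside 10248 of all 15815 tested genes. Once libraries were scaled to a common median, 42 of the 46 had a negative change. That scaling moved the median of all tested genes to 0.03.

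Tested gene by gene, 7 of the 46 fell and 0 rose (limma, Benjamini-Hochberg adjusted p under 0.05 over all tested genes). In the same test 4.38% of all tested genes fell and 1.54% rose. After median scaling 6 of the 46 fell, beside 2.54% of all tested genes. The 7 were Cdc25b, Mki67, Bub1b, Cdc20, Top2a, Cdk1 and Kif20a. At an unadjusted p under 0.05 the count was 32 of 46 lower and 0 higher, beside 18.5% lower and 5.98% higher of all tested genes. The TGFbeta mean was at most 0.5 times the vehicle mean for 12 of the 46, beside 6.37% of all tested genes. The 7 calls rest on all 4 libraries, and leaving out any of them puts 1 library against 2, so counts from such fits are not read here. With 1 library left out, the median log2 change of the 46 genes ran from -0.76 to -0.61, beside -0.16 to -0.10 for all tested genes. Other settings moved the count both ways: 4 of the 46 fell after quantile normalization (2.54% of all tested genes), 0 with every gene above 0 tested (0%), and 21 with protein-coding genes alone, rescaled to the same total (8.43%), a setting chosen after seeing the data.

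**Figure D1:**
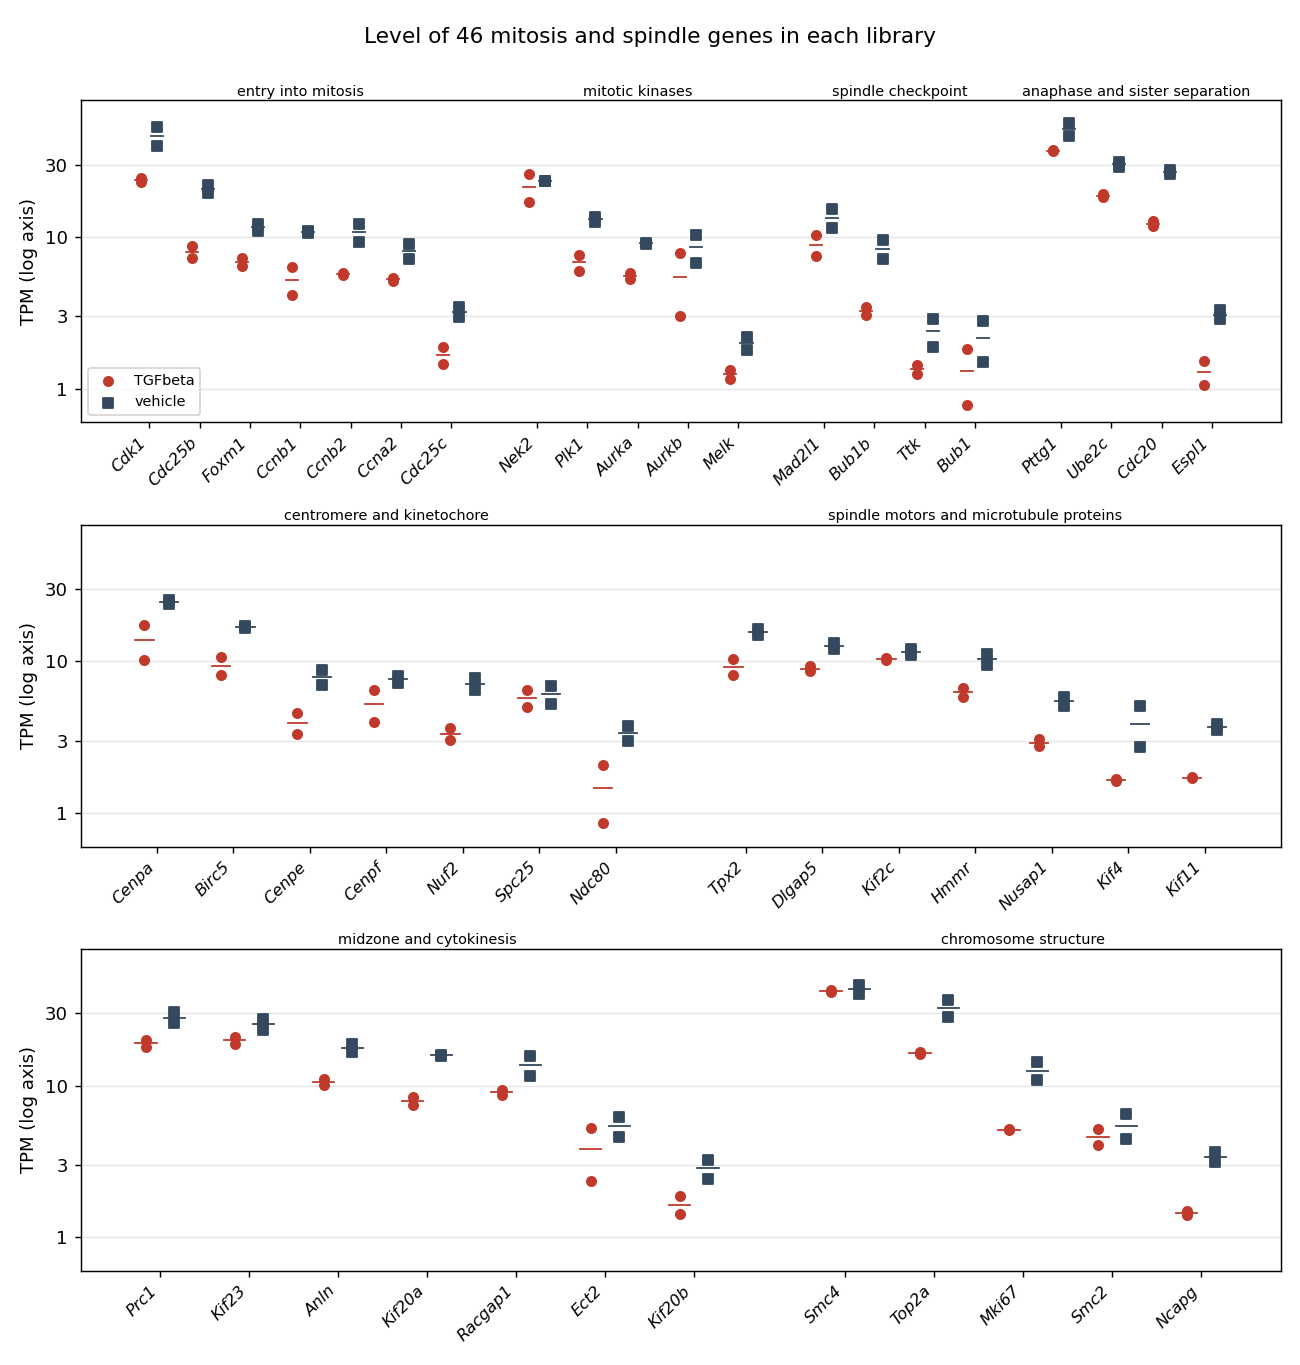
TPM (log axis) of each of the 46 genes in each library, in panels by role and within a role from the highest to the lowest vehicle mean. Circles are the 2 TGFbeta libraries, squares the 2 vehicle libraries and short lines the group means. Circles lie below squares for 39 genes, and the groups overlap for Aurkb, Nek2, Bub1, Spc25, Ect2, Smc2 and Smc4.

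The TGFbeta libraries held nearly the same level of the set, while vehicle 1 stood above vehicle 2. Vehicle 1 was the higher of the pair for 34 of the 46 genes. The median difference was 0.17 on the log2 scale, beside 0.06 for all tested genes. Even so, TGFbeta 1 lay below vehicle 1 for 45 genes and below vehicle 2 for 43, and TGFbeta 2 lay below vehicle 1 for 45 and below vehicle 2 for 42. Against the lower vehicle library, vehicle 2, the median difference of the set was -0.60 for TGFbeta 1 and -0.58 for TGFbeta 2, beside -0.11 and -0.09 for all tested genes. The sum of the 46 genes was 0.0408% and 0.0407% of all TPM with TGFbeta, against 0.0680% and 0.0620% with vehicle. In bulk RNA, fewer dividing cells and less of this RNA per dividing cell cannot be told apart, nor can a different recovery with HuR if that is how the RNA was obtained.

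Fibroblast markers were high in both groups, and summed markers of other heart cells lay far below them. The 10 fibroblast markers summed to 20932 and 19724 TPM with TGFbeta and to 23741 and 20090 TPM with vehicle, although Pdgfra and Tcf21 fell (limma adjusted p = 0.0106 and 0.0148). Summed macrophage markers were 65.3 and 69.6 TPM with TGFbeta against 79.2 and 98.2 TPM with vehicle, and 0 of 8 tested passed. Endothelial markers summed to 71.3 and 68.5 TPM with TGFbeta against 83.1 and 87.4 TPM with vehicle, and 1 of 9 tested passed, Erg, which rose. Cardiomyocyte markers summed to 70.5 and 76.2 TPM with TGFbeta against 90.2 and 132.8 TPM with vehicle, and 0 of 6 tested passed, while Myh6 was at most 0.394 TPM and Tnnt2 had 35.2 and 34.6 TPM with TGFbeta against 47.0 and 81.4 TPM with vehicle. Pericyte and smooth muscle markers summed to 81.3 and 84.0 TPM with TGFbeta against 120.6 and 123.3 TPM with vehicle, where Notch3 and Steap4 fell and Mcam rose among 6 tested, named after their values were seen. Notch3 carried much of the pericyte difference, with 21.1 and 17.4 TPM with TGFbeta against 74.0 and 83.9 TPM with vehicle, while 4 of the 6 had a positive change and the list's median change was 0.43. The macrophage, endothelial and cardiomyocyte sums thus also lay lower with TGFbeta, and their part in the mitotic levels was not tested. Of the genes in the study title, Elavl1, which encodes HuR, had 51.2 and 54.7 TPM with TGFbeta against 51.1 and 45.7 TPM with vehicle (limma adjusted p = 0.621), and Wisp1 had 153 and 141 TPM with TGFbeta against 25.3 and 22.0 TPM with vehicle (limma adjusted p = 0.00312).

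Promoters of the set shared sequence letters that its choice by symbol did not use. Many genes of G2 and mitosis are known to carry CCAAT boxes, bound by NF-Y, and a cell cycle homology element, bound by the DREAM complex in resting cells and by B-Myb complexes in dividing cells. RefSeq promoter windows on GRCm38.p6, from 250 bases before to 50 after a gene's start, were matched for 38 of the 46 genes, in 40 windows, and not for Aurkb, Ccna2, Cdc25c, Dlgap5, Foxm1, Kif20a, Smc4 and Tpx2. CCAAT or its reverse complement ATTGG was found in 30 of the 40 windows (75%), beside 37.4% of all 32851 windows of the table. At least 2 such boxes were found in 45% of the 40 windows and in 11.7% of all windows. The homology element letters, TTTGAA or TTCGAA on either strand, were found in 31 of the 40 windows (77.5%), beside 19.2% of all windows. Both kinds were found in 67.5% of the 40 windows and in 7.52% of all windows, and the kinds can share at most 1 base at their ends. Fewer windows held the letters in the last 100 bases before the start. The homology element letters lay there in 22.5% of the 40 windows, beside 6.13% of all windows, and CCAAT boxes in 65%, beside 18.9%. A match of letters is a description and not a bound site.

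**Figure D2:**
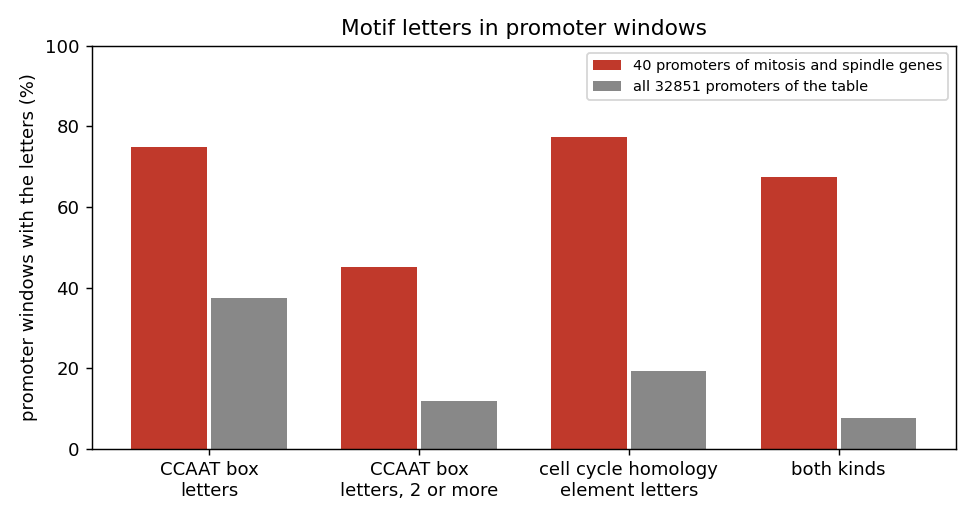
Share of promoter windows of 300 bases (y axis, %) that hold CCAAT box letters, at least 2 of them, the cell cycle homology element letters, or both kinds. Red bars are the 40 windows of mitosis and spindle genes and grey bars all 32851 windows of the RefSeq table, and each red bar is the higher, with 77.5% against 19.2% for the homology element.

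The last 150 bases before the start are shown for the 6 genes that fell and had a window, and for Spc25 and Kif2c, whose changes were close to the median of all tested genes, with the letters of either kind in capitals and each sequence read 5′ to 3′ on the gene's strand. The stretches are those of Cdc25b (chr2:131186798-131186947, plus strand), Bub1b (chr2:118598061-118598210, plus strand), Cdk1 (chr10:69352913-69353062, minus strand), Cdc20 (chr4:118437344-118437493, minus strand), Top2a (chr11:99024190-99024339, minus strand), Mki67 (chr7:135716380-135716529, minus strand), Spc25 (chr2:69206214-69206363, minus strand) and Kif2c (chr4:117178773-117178922, minus strand), all on GRCm38.p6.
Cdc25b: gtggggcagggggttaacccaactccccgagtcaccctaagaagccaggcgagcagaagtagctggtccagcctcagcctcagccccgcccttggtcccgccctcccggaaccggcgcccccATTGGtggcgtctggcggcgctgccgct
Bub1b: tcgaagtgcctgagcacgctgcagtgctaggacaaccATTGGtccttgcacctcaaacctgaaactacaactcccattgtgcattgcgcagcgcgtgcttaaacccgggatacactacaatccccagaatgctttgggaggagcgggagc
Cdk1: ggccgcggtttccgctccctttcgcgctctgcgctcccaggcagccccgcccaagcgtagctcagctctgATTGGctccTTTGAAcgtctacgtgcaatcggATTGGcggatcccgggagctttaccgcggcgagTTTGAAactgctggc
Cdc20: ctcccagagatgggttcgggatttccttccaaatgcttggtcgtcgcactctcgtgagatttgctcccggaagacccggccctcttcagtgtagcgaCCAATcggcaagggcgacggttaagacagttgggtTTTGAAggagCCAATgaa
Top2a: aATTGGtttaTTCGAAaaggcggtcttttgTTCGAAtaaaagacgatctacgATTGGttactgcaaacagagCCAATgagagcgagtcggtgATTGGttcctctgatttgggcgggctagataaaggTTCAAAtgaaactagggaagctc
Mki67: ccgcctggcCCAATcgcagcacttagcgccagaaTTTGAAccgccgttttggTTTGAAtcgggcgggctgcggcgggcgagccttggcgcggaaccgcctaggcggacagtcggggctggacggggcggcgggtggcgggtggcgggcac
Spc25: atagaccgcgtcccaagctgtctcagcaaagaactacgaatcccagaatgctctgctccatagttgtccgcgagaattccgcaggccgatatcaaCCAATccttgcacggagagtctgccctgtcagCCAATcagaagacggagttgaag
Kif2c: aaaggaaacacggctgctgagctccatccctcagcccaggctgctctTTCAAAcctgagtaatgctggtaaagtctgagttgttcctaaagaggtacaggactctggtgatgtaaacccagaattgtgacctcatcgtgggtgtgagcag
The Cdk1 stretch held 2 CCAAT boxes and 2 homology element matches, that of Cdc20 2 and 1, that of Top2a 4 and 3, and that of Mki67 1 and 2. The stretches of Cdc25b and Bub1b each held 1 CCAAT box and 0 homology element matches, as that of Spc25 held 2 and 0, and that of Kif2c held 0 and 1. The stretch of Nek2, also near the median, held 1 CCAAT box and 0 homology element matches and is not shown. Genes that fell and genes near the median thus both included stretches without homology element letters. In the full windows all 6 genes that fell held both kinds, as did Spc25 and Smc2 of the genes near the median. Kif2c held no CCAAT box in its full window, and Nek2 held no homology element letters. The Kif2c window lies inside its GENCODE M21 gene model (chromosome 4, 117159639 to 117182639, minus strand). It is thus not at the 5′ end of that model, and the promoter there was not examined. The median log2 change was -0.69 for the 29 genes with homology element letters and -0.72 for the 9 without, and -0.79 for the 28 genes with a CCAAT box and -0.61 for the 10 without, of which 0 were among those that fell. These differences were not tested.

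Entry into mitosis had 2 of 7 genes that fell, and all 7 were separated. Cdc25b, a phosphatase that removes inhibitory phosphates from Cdk1 (GRCm38 chromosome 2, 131186949 to 131198497, plus strand), had 7.26 and 8.80 TPM with TGFbeta against 19.6 and 22.0 TPM with vehicle. Its mean level with TGFbeta was 0.386 of that with vehicle, the lowest ratio of the set (log2 change -1.27, SE 0.18, limma adjusted p = 0.0200). Cdk1 itself, the kinase that drives mitosis (chromosome 10, 69335146 to 69352938, minus strand), had 23.1 and 24.7 TPM with TGFbeta against 53.7 and 40.1 TPM with vehicle (log2 change -0.93, SE 0.18, limma adjusted p = 0.0424). Its TGFbeta values lay close together and its vehicle values farther apart, with no overlap. The cyclins that bind it did not pass. Ccnb1 had 6.37 and 4.12 TPM with TGFbeta against 10.7 and 10.9 TPM with vehicle (log2 change -0.94, SE 0.23, limma adjusted p = 0.0666). Ccnb2 had 5.84 and 5.62 TPM with TGFbeta against 12.2 and 9.28 TPM with vehicle (limma adjusted p = 0.0738), and Ccna2, which encodes cyclin A, had 5.42 and 5.10 TPM with TGFbeta against 9.01 and 7.14 TPM with vehicle (0.168). Foxm1, a transcription factor for genes of G2 and mitosis, had 7.26 and 6.43 TPM with TGFbeta against 12.3 and 10.9 TPM with vehicle (limma adjusted p = 0.0786). The second phosphatase, Cdc25c, had 1.90 and 1.46 TPM with TGFbeta against 3.45 and 2.99 TPM with vehicle (limma adjusted p = 0.136). Summed, the 7 genes had 0.506 of the vehicle level, the lowest ratio of the 8 roles.

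Among 5 mitotic kinases 0 passed and 3 were separated. Plk1, which acts from centrosome maturation to cytokinesis, came nearest the threshold, with 7.67 and 6.02 TPM with TGFbeta against 13.6 and 12.7 TPM with vehicle (log2 change -0.86, SE 0.19, limma adjusted p = 0.0543). Aurka, which works at centrosomes and spindle poles, had 5.80 and 5.33 TPM with TGFbeta against 9.09 and 9.12 TPM with vehicle (limma adjusted p = 0.0943), and Melk had 1.15 and 1.33 TPM with TGFbeta against 2.19 and 1.81 TPM with vehicle (0.305). The other two overlapped between groups. Aurkb, the kinase of the chromosomal passenger complex, had 3.04 and 7.88 TPM with TGFbeta against 6.80 and 10.3 TPM with vehicle, so that libraries of the same group differed by more than the group means did (limma adjusted p = 0.376). Its log2 change was -1.22 without TGFbeta 2 and -0.08 without TGFbeta 1. Nek2, which acts in centrosome separation, had 26.2 and 17.0 TPM with TGFbeta on either side of 23.6 TPM in each vehicle library (log2 change -0.15, SE 0.22, limma adjusted p = 0.726), and its sign turned after median scaling.

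**Figure D3:**
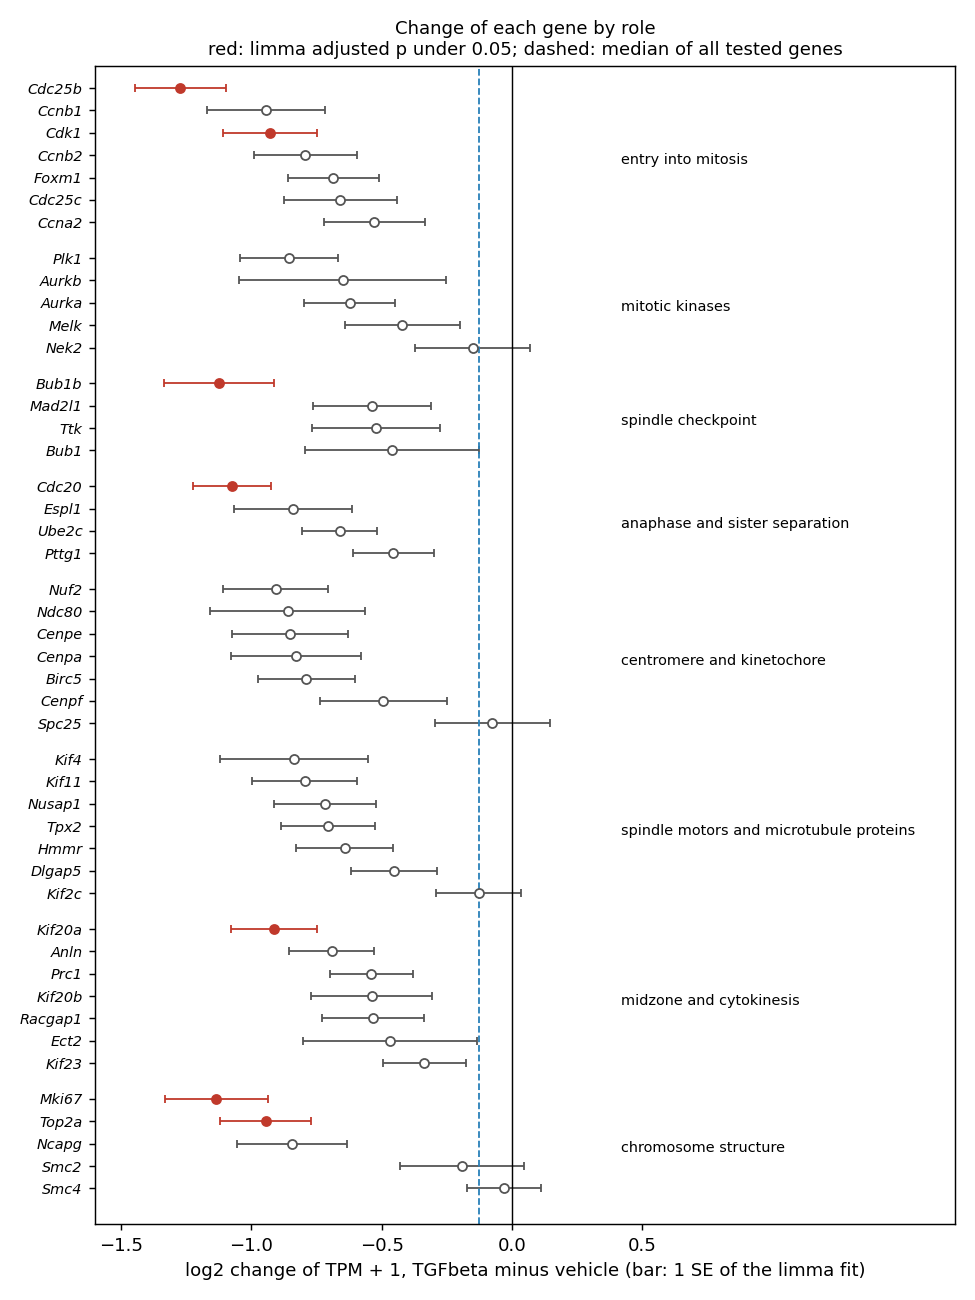
Log2 change of TPM + 1, TGFbeta minus vehicle (x axis), for each of the 46 genes by role, with bars of 1 SE of the limma fit. Red points are the 7 genes with an adjusted p under 0.05 and the dashed line is the median of all tested genes (-0.13). Most genes lie left of that line, while Nek2, Spc25, Kif2c, Smc2 and Smc4 lie near it.

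Of the 4 spindle checkpoint genes, Bub1b fell. Bub1b encodes BubR1, a part of the complex that inhibits the anaphase-promoting complex (chromosome 2, 118598211 to 118641591, plus strand), and had 3.48 and 3.08 TPM with TGFbeta against 9.58 and 7.21 TPM with vehicle. Its mean with TGFbeta was 0.391 of that with vehicle (log2 change -1.12, SE 0.21, limma adjusted p = 0.0401). Ttk, which encodes the checkpoint kinase Mps1, had 1.25 and 1.45 TPM with TGFbeta against 2.91 and 1.89 TPM with vehicle (limma adjusted p = 0.258). Mad2l1, which encodes the checkpoint protein Mad2, had 7.53 and 10.3 TPM with TGFbeta against 15.3 and 11.5 TPM with vehicle (limma adjusted p = 0.214). Both were separated without passing. Bub1, a kinase at kinetochores, overlapped, with 0.777 and 1.84 TPM with TGFbeta against 2.82 and 1.505 TPM with vehicle (limma adjusted p = 0.454).

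Genes of anaphase were separated in 4 of 4 cases, and 1 fell. Cdc20, which activates the anaphase-promoting complex and is the target of the checkpoint (chromosome 4, 118432901 to 118437352, minus strand), had 11.8 and 12.7 TPM with TGFbeta against 27.8 and 26.02 TPM with vehicle. Its mean with TGFbeta was 0.455 of that with vehicle (log2 change -1.07, SE 0.15, limma adjusted p = 0.0205). Ube2c, the ubiquitin-conjugating enzyme of the same complex, had 19.2 and 18.4 TPM with TGFbeta against 29.0 and 31.6 TPM with vehicle (log2 change -0.66, SE 0.14, limma adjusted p = 0.0543). Pttg1, which encodes securin, had the highest mean over the 4 libraries, with 36.8 and 37.6 TPM with TGFbeta against 46.3 and 57.1 TPM with vehicle (limma adjusted p = 0.142). Espl1, which encodes separase, the protease that securin holds in check, had 1.52 and 1.05 TPM with TGFbeta against 2.88 and 3.29 TPM with vehicle (limma adjusted p = 0.0876). The ratio of means was 0.418 for Espl1 and 0.720 for Pttg1, and the difference between these ratios was not tested.

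Among 7 centromere and kinetochore genes 0 passed and 6 were separated. Nuf2 and Ndc80 encode subunits of the Ndc80 complex, which grips microtubules at the kinetochore. Nuf2 had 3.02 and 3.64 TPM with TGFbeta against 7.77 and 6.49 TPM with vehicle (log2 change -0.91, SE 0.20, limma adjusted p = 0.0570). Ndc80 had 0.861 and 2.07 TPM with TGFbeta against 3.73 and 2.98 TPM with vehicle (limma adjusted p = 0.147). Spc25, a further subunit of that complex, overlapped between the groups, with 5.01 and 6.45 TPM with TGFbeta against 6.93 and 5.27 TPM with vehicle (log2 change -0.08, SE 0.22, limma adjusted p = 0.871), and its sign turned after median scaling and quantile normalization. Cenpa, the histone H3 variant that marks centromeres, had 17.4 and 10.3 TPM with TGFbeta against 23.8 and 25.4 TPM with vehicle (limma adjusted p = 0.111). The kinetochore motor gene Cenpe had 3.31 and 4.58 TPM with TGFbeta against 8.77 and 7.04 TPM with vehicle (limma adjusted p = 0.0818), and Cenpf had 6.47 and 3.99 TPM with TGFbeta against 7.16 and 8.06 TPM with vehicle (0.280). Birc5, which encodes survivin of the chromosomal passenger complex, had 10.7 and 8.13 TPM with TGFbeta against 16.6 and 17.0 TPM with vehicle (limma adjusted p = 0.0637). For Cenpa, Cenpf, Ndc80 and Birc5 the TGFbeta libraries differed more from each other than the vehicle libraries did.

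Spindle motor and microtubule genes were separated in 7 of 7 cases and passed in 0. Kif11, the motor that pushes spindle poles apart, had 1.69 and 1.72 TPM with TGFbeta against 3.87 and 3.53 TPM with vehicle (log2 change -0.80, SE 0.20, limma adjusted p = 0.0770). Kif4, a motor on chromosome arms, had 1.69 and 1.62 TPM with TGFbeta against 5.05 and 2.71 TPM with vehicle (limma adjusted p = 0.142), with most of the spread in the vehicle pair. Tpx2, which activates Aurora A on the spindle, had 8.19 and 10.3 TPM with TGFbeta against 16.3 and 15.0 TPM with vehicle (limma adjusted p = 0.0786). The other microtubule-binding proteins of the spindle gave like values. Nusap1 had 2.76 and 3.07 TPM with TGFbeta against 5.81 and 5.08 TPM with vehicle (limma adjusted p = 0.0902), Hmmr had 5.81 and 6.70 TPM with TGFbeta against 11.3 and 9.44 TPM with vehicle (0.104), and Dlgap5 had 9.31 and 8.61 TPM with TGFbeta against 13.2 and 12.1 TPM with vehicle (0.165). Kif2c, which takes microtubules apart at centromeres, lay apart from these with 10.3 and 10.6 TPM with TGFbeta against 12.0 and 11.0 TPM with vehicle. Its log2 change of -0.13 (SE 0.16, limma adjusted p = 0.681) was close to the median of all tested genes and turned positive after median scaling and quantile normalization.

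In the midzone and cytokinesis group 1 of 7 fell and 6 were separated. Kif20a, a motor that carries the chromosomal passenger complex to the midzone, had 7.49 and 8.41 TPM with TGFbeta against 15.9 and 15.8 TPM with vehicle (log2 change -0.91, SE 0.16, limma adjusted p = 0.0358). After median scaling its adjusted p was 0.0505. Anln, which encodes the furrow protein anillin, had 10.1 and 11.1 TPM with TGFbeta against 18.8 and 16.7 TPM with vehicle (limma adjusted p = 0.0647). Prc1, which bundles midzone microtubules, had 18.1 and 19.9 TPM with TGFbeta against 30.4 and 25.8 TPM with vehicle (limma adjusted p = 0.106). The centralspindlin genes Racgap1 and Kif23 were separated by smaller margins. Racgap1 had 8.69 and 9.36 TPM with TGFbeta against 15.6 and 11.6 TPM with vehicle (limma adjusted p = 0.168), and Kif23 had 18.9 and 20.9 TPM with TGFbeta against 27.5 and 23.3 TPM with vehicle (0.262). Kif20b, a further motor of cytokinesis, had 1.43 and 1.86 TPM with TGFbeta against 3.25 and 2.44 TPM with vehicle (limma adjusted p = 0.223). Ect2, the exchange factor that activates RhoA at the furrow, overlapped, with 5.27 and 2.35 TPM with TGFbeta against 6.20 and 4.58 TPM with vehicle (limma adjusted p = 0.447).

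Of the 8 roles, chromosome structure had the widest range of changes. Mki67, which encodes the proliferation marker Ki-67, a coat protein of mitotic chromosomes (chromosome 7, 135689784 to 135716361, minus strand), had 5.06 and 5.20 TPM with TGFbeta against 14.3 and 10.9 TPM with vehicle (log2 change -1.14, SE 0.20, limma adjusted p = 0.0337). Top2a, the topoisomerase that untangles sister chromatids (chromosome 11, 98992943 to 99024189, minus strand), had 16.2 and 16.6 TPM with TGFbeta against 36.9 and 28.5 TPM with vehicle (log2 change -0.95, SE 0.17, limma adjusted p = 0.0380). For both, the TGFbeta libraries were nearly equal and clear of either vehicle library. The condensin genes gave unlike values. Ncapg, which encodes a subunit of condensin I, had 1.41 and 1.48 TPM with TGFbeta against 3.12 and 3.67 TPM with vehicle (log2 change -0.84, SE 0.21, limma adjusted p = 0.0727). Smc4, an ATPase core subunit shared by both condensins, had 41.5 and 42.9 TPM with TGFbeta against 46.3 and 40.2 TPM with vehicle (log2 change -0.03, SE 0.14, limma adjusted p = 0.923). Its partner Smc2 had 4.03 and 5.17 TPM with TGFbeta against 6.46 and 4.44 TPM with vehicle (log2 change -0.19, SE 0.24, limma adjusted p = 0.673). Both core genes overlapped between the groups, and both turned positive after quantile normalization, Smc4 also after median scaling. The difference between Ncapg and the core genes was not tested.

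Further genes of mitosis were examined outside the 46, in lists also chosen with earlier results of these data known. Over 107 tested genes of 4 other lists, 10 fell and 0 rose, the median log2 change was -0.31, and 61 were separated lower and 5 higher. Those that fell were 9.35% of the 107 and those separated lower 57.0%, beside 4.38% and 39.8% of all tested genes, and the difference was not tested. Among 30 other spindle and cytokinesis genes 6 fell, namely Troap (-1.22), Kif22 (-1.05), Cit (-1.04), Kifc1 (-1.04), Tacc3 (-1.004) and Iqgap3 (-0.90 on the log2 scale; limma adjusted p from 0.0218 to 0.0491), and the list median was -0.44. Of 16 cohesin and other condensin genes 2 fell, Ncaph (-1.07) and Ncapd2 (-1.04 on the log2 scale; limma adjusted p = 0.0353 and 0.0395), both of them subunits of condensin I, as Ncapg is. Of 28 other mitotic control genes 2 fell, Cdca3 (-0.999) and the cyclin gene Ccnf (-0.93 on the log2 scale; limma adjusted p = 0.0472 and 0.0492), with a list median of -0.25. Among 33 other kinetochore and centromere genes 0 passed, with 7 lower and 0 higher at an unadjusted p under 0.05, close to the 18.5% of all tested genes. Of the 33, 21 were separated lower (63.6%) and 1 higher, and the list median was -0.31. Their largest changes were those of Cenpm (-0.96, limma adjusted p = 0.140), Incenp (-0.81, 0.0541) and Cenps, listed as Apitd1 (-0.76, 0.207).

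Regulators and replication genes passed the adjusted test at or below the share of all tested genes (4.38% lower), while replication genes lay lower by other measures. The regulator list held subunits of the DREAM and B-Myb complexes, and also Rb1 and further E2F genes such as E2f1 and E2f3. Of its 16 tested genes 0 passed, and the median log2 change was -0.17. At an unadjusted p under 0.05, 3 were lower and 0 higher, close to the 18.5% lower of all tested genes. The log2 change was -0.58 for Mybl2, which encodes B-Myb (limma adjusted p = 0.131), -0.60 for the pocket protein gene Rbl2 (0.162) and -0.46 for Lin9 (0.204). Of 26 tested DNA replication genes 1 fell, Uhrf1, which couples DNA methylation to replication (log2 change -0.93, limma adjusted p = 0.0405), and their median was -0.42, with 11 lower and 1 higher at an unadjusted p under 0.05. Gins1 (-0.81, limma adjusted p = 0.0653) and Gmnn (-0.74, 0.132) came next. Summed TPM with TGFbeta was 0.864 of the vehicle level for replication genes and 0.932 for the regulator list, against 0.627 for the 46 genes. These differences between lists were not tested.

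**Figure D4:**
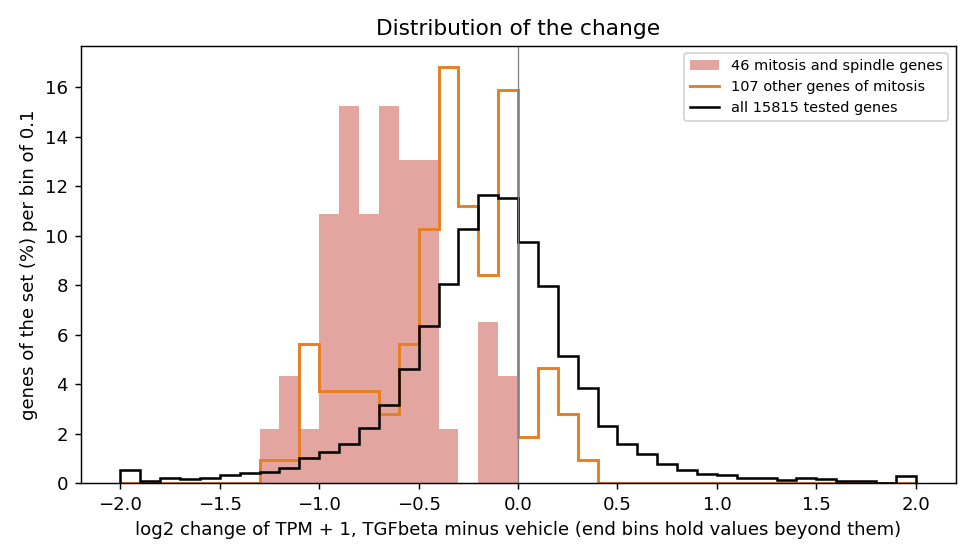
Share of each gene set (y axis, %) in bins of 0.1 of the log2 change, TGFbeta minus vehicle (x axis), with values beyond 2 in the end bins. The filled area is the 46 mitosis and spindle genes, the orange line 107 other genes of mitosis and the black line all 15815 tested genes. Medians are -0.67, -0.31 and -0.13 in that order, and no gene of the 46 lies above 0.

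Overlapping gene models and copies limit some values. Exons of 14 of the 46 genes overlap those of another GENCODE M21 gene, and the labels do not say whether strand was kept, so reads of such pairs may not have been told apart. Cdc20 overlaps Elovl1, which had mean levels of 371 TPM with TGFbeta and 303 TPM with vehicle (limma adjusted p = 0.241). Kif20a overlaps Cdc23, which had means of 51.2 TPM with TGFbeta and 65.3 TPM with vehicle (limma adjusted p = 0.184), and Cdc25b overlaps Spef1, with 15.7 TPM in each group (0.974). Transcripts of 6 genes, Ccnb1, Cdc20, Mad2l1, Mki67, Ndc80 and Racgap1, matched a transcript of another gene at 95% identity or more over at least 200 bases. Of the matching genes that had a value, 2700099C18Rik, the copy of part of Ndc80, had 3.28 TPM with TGFbeta and 6.10 TPM with vehicle, and the others had means of at most 0.647 TPM.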

How the data were processed

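RNA levels were taken from 4 libraries, 2 given TGFbeta and 2 given vehicle. The deposited unit, per the file headers, is TPM for each gene, computed by the authors, and each library was checked to sum to 1000000. How reads were aligned and quantified, and on which build, is not given in the sources used here. Depth cannot be read from TPM and is unknown, so counting intervals were not made. Fits used limma 3.58.1 in R 4.3.3 (lmFit, eBayes with an intensity trend) on log2(TPM + 1) of 15815 genes that averaged 1 TPM or more, with treatment as the only term, two-sided. P-values were Benjamini-Hochberg adjusted over all of them. A call is an adjusted p under 0.05, and SE is that of the fit. A gene is separated when both libraries of one group lie beyond both of the other. An exact permutation of the 4 libraries cannot give a p under 0.333, so none was used.

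The 46 genes and the 6 lists of other cell cycle genes (156 genes, 4 found under an older symbol) were chosen with earlier results of these data known. All 46 are named. Of other lists, called genes are named, or else the 3 with the largest absolute change. Gene positions come from GENCODE M21 (GRCm38). Copies were searched for with megablast. The fitting code was run on simulated data with known changes, set only in genes above a minimum level. No result given here rests on that run. The 13 alternatives were other pseudocounts, filters, scalings and variance models, a replicate block and each library left out. A further one, protein-coding genes alone with TPM rescaled, was chosen after seeing the data.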

Additional observations from a re-analysis of the deposited data

How the results depend on the processing

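Against 7 of the 46 genes called lower, the count was 4 after quantile normalization, 4 with the replicate number as a block, 11 with robust eBayes, 14 of the 34 with a mean TPM of at least 5, 21 with rescaled protein-coding genes, 0 with every gene above 0 tested (31 at an unadjusted p under 0.05) and 0 to 0 with 1 library left out (limma). Of all tested genes 4.38% were called lower, and 2.54%, 2.81%, 5.75%, 9.02%, 8.43% and 0% in the first 6 of these settings. Leaving out a library or testing every gene above 0 ended all 7 calls. Quantile normalization ended those of Cdk1, Bub1b and Kif20a, the block those of Cdk1, Top2a and Kif20a, no intensity trend those of Cdk1 and Top2a, and median scaling that of Kif20a. With all 4 libraries in the fit, no setting called one of the 46 higher. Between 37 and 39 of the 46 were separated lower where all 46 and all 4 libraries were tested. Over all genes, the 936 calls became 602 without a trend, 1659 with protein-coding genes, 0 with every gene above 0, and 0 to 203 with 1 library left out.

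The median log2 change of the set (-0.67) was -0.76 with a pseudocount of 0.1, -0.40 with one of 5, -0.52 by median scaling and -0.52 by quantile normalization, and ran from -0.76 to -0.61 with 1 library left out. Median scaling moved the median of all tested genes to 0.03, and 24.7% of them were then separated lower, beside 37 of the 46. The log2 ratio of summed TPM (-0.67) was -0.50 after median scaling and -0.74 to -0.61 with 1 library left out.

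Signs turned for Smc4 (0.12 by median scaling, 0.097 by quantile normalization, 0.00092 with protein-coding genes, -0.13 to 0.069 with 1 library left out), Spc25 (0.079 by median scaling, 0.0999 by quantile normalization, -0.25 to 0.095 with 1 library left out), Kif2c (0.026 and 0.036 by the same scalings), Smc2 (0.0026 by quantile normalization, -0.42 to 0.036 with 1 library left out) and Nek2 (0.0031 by median scaling, -0.45 to 0.15 with 1 library left out). The cause was not tested. Replicate numbers do not pair the samples as far as the labels say. Deviations of same-numbered libraries correlated at -0.05 across tested genes, and the block gave 4 of the 46 called.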
